A study of Homo sapiens with 36 samples.

Results

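Subtelomeric TET1 peaks were taken here as peaks whose summit lay within 500 kb of an end of chromosomes 1 to 22, on the human build hg19. The short arms of chromosomes 13, 14, 15, 21 and 22 were left out, so 39 windows were used, 17 at short-arm ends and 22 at long-arm ends, over 19.5 Mb in all. Of 62066 peaks in 6 deposited lists, 509 were subtelomeric. The long lists held nearly all of them: siCHD5 had 279 among 32749 peaks and siNC had 221 among 28450. The short lists had 2 among 140 (siCHD3), 1 among 110 (siCHD4), 3 among 358 (siMBD2) and 3 among 259 (siMBD3). Position alone chose them, and no measured value entered the rule. The study mapped TET1 by chromatin immunoprecipitation and sequencing in HEK293T cells, an established line from human embryonic kidney that carries the SV40 large T antigen. Every group was transfected with an siRNA: siCHD3, siCHD4 or siCHD5, named for chromatin-remodelling ATPases of the NuRD complex, siMBD2 or siMBD3, named for its methyl-CpG-binding domain subunits, or siNC, taken as the control because its name holds no gene. Each group had 3 pull-down and 3 input libraries but 1 peak list, whose name carries the replicates together, so no spread between replicates could be computed and no comparison below was tested. Whether the targeted proteins were lowered was not analysed here.

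TET1 oxidises methylated cytosine, the first step of active DNA demethylation, and binds mainly unmethylated, CpG-rich DNA. Subtelomeres lie just inside the hexamer repeats that cap each chromosome and are a patchwork of blocks duplicated between ends. CpG-rich promoters near the ends of human chromosomes drive TERRA, a long noncoding RNA of the telomere, and in human cells these promoters are known as sites of DNA methylation and of CTCF and cohesin binding.

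Several ends carry the same outermost block. In the RefSeq gene table, which is on GRCh38.p14 and was used for names and gene order only, the outermost named gene at 1p, 9p, 12p, 15q and 16p is a DDX11L pseudogene: DDX11L1, DDX11L5, DDX11L8, DDX11L9 and DDX11L10. A gene or pseudogene of the WASH family, whose protein-coding member WASHC1 belongs to an actin-nucleating complex of endosomes, is next in line at each of these 5 ends. WASH is not particular to them, since WASH5P is second at 19p, behind KIR2DL2. At 1p, 15q and 16p the third name is a copy of the microRNA gene MIR6859. The 3 hairpins are shown, from RefSeq (GRCh38.p14), because they make the repetition visible; capitals mark the mature arms.
MIR6859-1, chromosome 1: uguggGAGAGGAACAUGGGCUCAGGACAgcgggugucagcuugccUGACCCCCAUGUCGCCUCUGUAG
MIR6859-3, chromosome 15: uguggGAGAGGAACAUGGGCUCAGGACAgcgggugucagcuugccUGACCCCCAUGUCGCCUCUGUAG
MIR6859-4, chromosome 16: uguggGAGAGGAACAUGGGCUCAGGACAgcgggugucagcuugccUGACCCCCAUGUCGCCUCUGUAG
All 68 bases were identical in the 3 copies. Reads from stretches like these cannot be assigned to 1 end, and how the authors placed or filtered such reads is not given in the sources used here. Peak values at duplicated ends are therefore uncertain as to which copy they came from.

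The windows held slightly more peaks per length than the remaining autosomes in both long lists. siCHD5 had 14.3 peaks per Mb in the windows and 10.9 per Mb on the rest of chromosomes 1 to 22, a ratio of 1.32 (exact 95% interval 1.17 to 1.48). siNC had 11.3 peaks per Mb in the windows and 9.43 elsewhere on these chromosomes, a ratio of 1.20 (1.05 to 1.37). These intervals cover counting error only, and neighbouring peaks are not independent. The higher density was not limited to the outermost windows. In the 9 further steps of 0.5 Mb, out to 5 Mb from the ends, density ran from 12.3 to 15.3 peaks per Mb in siCHD5 and from 10.0 to 12.3 in siNC, so the outermost step lay within the range of its neighbours in both lists. Fold enrichment, the authors' ratio of pull-down to local control background at a summit within its own list, was lowest in the outermost step. Its median there was 6.80 in siCHD5 (exact order-statistic 95% interval 5.98 to 7.26), against medians of 7.30 to 7.82 in the next 9 steps. Without 5q, the end with most siCHD5 peaks, the siCHD5 median was 6.91 (6.05 to 7.54). That interval covers several of the siCHD5 neighbours, so the gap depends in part on 1 end. In siNC it was 6.79 (6.16 to 7.48), against 6.86 to 7.72, so that interval covers several of the siNC neighbours.

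**Figure D1:**
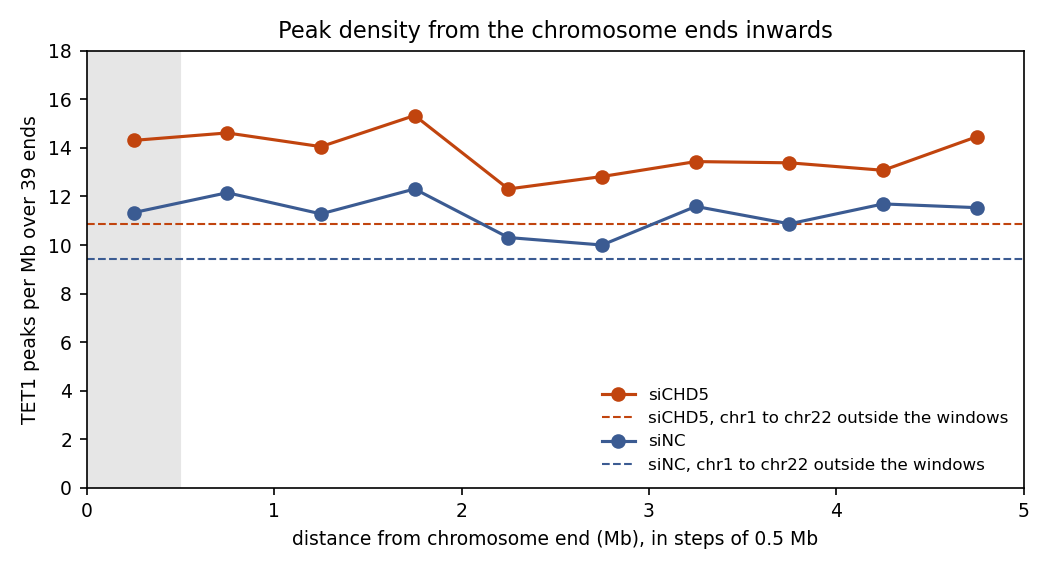
TET1 peaks per Mb (vertical axis) in steps of 0.5 Mb from 39 chromosome ends inwards (horizontal axis, Mb), for siCHD5 and siNC; dashed lines give chromosomes 1 to 22 outside the outermost windows, and grey marks those windows. Both curves lie above their dashed lines throughout, and the outermost step (14.3 in siCHD5, 11.3 in siNC) does not stand out from the next. All lengths include any unsequenced bases.

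As a share of its list, the subtelomeric set ranged between 0.777% and 1.43%. It made up 0.852% of siCHD5 (exact Clopper-Pearson 95% interval 0.755 to 0.957) and 0.777% of siNC (0.678 to 0.886). Among the short lists, siCHD3 had the highest share, 1.43% (0.173 to 5.07), and siMBD2 the lowest, 0.838% (0.173 to 2.43). siMBD3 stood at 1.16% (0.240 to 3.35) and siCHD4 at 0.909% (0.0230 to 4.96). Of peaks on chromosomes 1 to 22 alone, the windows held 0.891% in siCHD5 and 0.813% in siNC, and they make up 0.677% of the length of these chromosomes, less the short-arm ends left out. Of short-list peaks on these chromosomes, the windows held 2.38% in siCHD3 (2 of 84), 1.39% in siCHD4, 0.977% in siMBD2 and 1.40% in siMBD3. The intervals of the 4 short lists, with 1 to 3 subtelomeric peaks each, all include the siNC share.

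Peaks were spread unevenly over the ends. siCHD5 had a peak at all 39 ends, with a median of 6 and a range of 1 to 21 per end. siNC had a peak at 38 ends, with a median of 5 and at most 14. The short-arm end of chromosome 3 was the end with 0 siNC peaks, while siCHD5 had 2 there, of 3.47-fold and 6.09-fold. At the 3 ends with most siNC peaks, siCHD5 had 17 at 5p, 12 at 10q and 12 at 22q, and siNC had 14 at 5p, 14 at 10q and 12 at 22q. The long-arm ends of chromosomes 4 and 10 held 10 and 12 siCHD5 peaks and 9 and 14 siNC peaks. In the RefSeq order both carry DUX4, a transcription factor gene of the early embryo, or its DUX4L copies near the tip. Short-arm ends make up 43.6% of the windows and held 103 of 279 siCHD5 peaks and 88 of 221 siNC peaks.

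**Figure D2:**
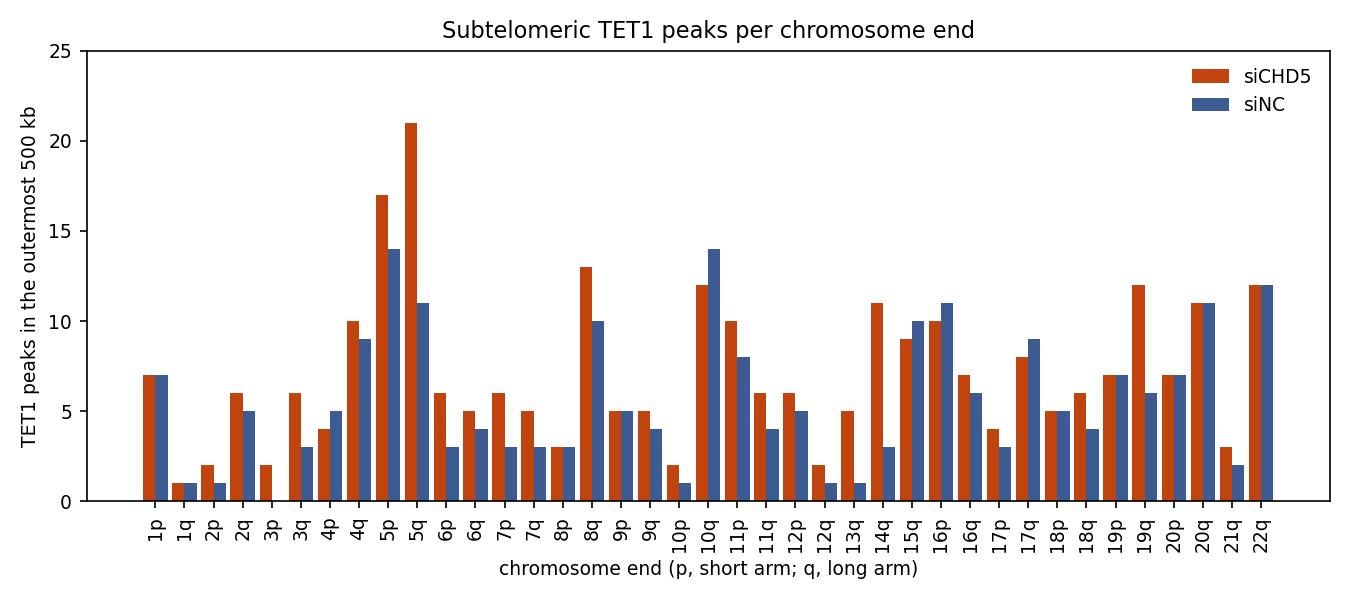
Number of subtelomeric TET1 peaks (vertical axis) at each of 39 chromosome ends (horizontal axis), siCHD5 beside siNC; each bar is 1 count from 1 pooled list. The largest gaps are at 5q (21 in siCHD5, 11 in siNC), 14q (11 in siCHD5, 3 in siNC) and 19q (12 in siCHD5, 6 in siNC), and 3p is empty in siNC.

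siCHD5 had more peaks than siNC at 25 ends, the same number at 9 and fewer at 5. The siCHD5 list as a whole is 15.1% longer than the siNC list, and in the windows it had 26.2% more peaks. The differences summed to 64 over the 25 ends with more siCHD5 peaks, and 5q, 14q and 19q together made up 24 of these. At 5q siCHD5 had 21 peaks, summits of 18 distinct intervals, and siNC had 11, each its own interval. The 12 siCHD5 peaks there without a siNC peak had folds of 2.75 to 6.05 (median 3.37), and the 9 shared ones had a median of 7.92. At a fold of at least 4, siCHD5 had 9 peaks there and siNC had 6.

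The long-arm end of chromosome 14, which carries immunoglobulin heavy-chain variable segments in the RefSeq order, held 11 siCHD5 peaks (10 intervals) and 3 siNC peaks (3 intervals). A fold of 4 was reached by 10 of the siCHD5 peaks and 2 of the siNC peaks. The strongest siCHD5 peak there lay at 107012749 to 107012976 (7.89-fold) and had no siNC partner. All 11 siCHD5 summits had a control background of 2.80 reads, the lowest value in that list, and the 3 siNC summits had 2.50, 3.17 and 2.50. At 19q siCHD5 had 12 peaks (11 intervals) and siNC had 6 (6 intervals). Of the siCHD5 peaks there, 5 overlapped siNC, and the other 7 had folds of 2.89 to 9.73. These ends were picked for their difference in number, which is described here and not tested.

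The strongest subtelomeric peaks stood high in both long lists. The highest in siCHD5 lay at 12p, at 94035 to 94511 of chromosome 12, and its enrichment was 37.6-fold in siCHD5 and 15.8-fold in siNC. The recovered pull-down pileup there, the number of fragments over the summit, was 142 over a control background of 2.80 in siCHD5 and 123 over 6.87 in siNC. The pileups of the lists at that summit differ less than their backgrounds. At 9p, on chromosome 9 at 11250 to 11779, folds were 28.1 in siCHD5 and 22.6 in siNC. At 9q, at 141121209 to 141121677, they were 24.1 in siCHD5 and 20.9 in siNC. Each end of chromosome 9 held 5 siCHD5 peaks, while siNC had 5 at 9p and 4 at 9q.

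Chromosome 16 carried the highest siNC values. At 16q, at 90182560 to 90183025 in siNC, folds were 23.0 in siCHD5 and 29.1 in siNC, the fourth highest of all siNC peaks. At 16p, at 60818 to 61233, they were 22.5 in siCHD5 and 29.0 in siNC, with pileups of 151 over 5.76 in siCHD5 and 135 over 3.70 in siNC. This peak was the only one of the 10 highest in siNC that a short list also held. Further strong siCHD5 peaks lay at 16p at 146834 to 147238 (22.3-fold in siCHD5, 12.3-fold in siNC) and at 115624 to 116048 (19.5-fold in siCHD5, 12.6-fold in siNC). The remaining siCHD5 peaks of the highest 10 lay at 10q at 135143244 to 135143652 (20.2-fold in siCHD5, 12.2-fold in siNC), at 19q at 59092486 to 59092929 (19.6-fold in siCHD5, 15.3-fold in siNC) and at 15q at 102519438 to 102520036 (19.5-fold in siCHD5, 13.2-fold in siNC).

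The remaining siNC peaks of the highest 10 lay at 16q at 90148303 to 90148693, with folds of 16.3 in siCHD5 and 17.2 in siNC, and at 22q at 51058829 to 51059262, with 11.9 in siCHD5 and 16.9 in siNC. At 8q, at 146125527 to 146125948, folds were 10.8 in siCHD5 and 16.6 in siNC. At 3q, at 197894420 to 197894791, they were 16.2 in both lists, and at 1p, at 11136 to 11830, they were 13.4 in siCHD5 and 16.2 in siNC. The tenth was the 12p peak. Every one of these siNC peaks was overlapped by a siCHD5 peak.

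The 5 ends with a DDX11L pseudogene outermost held 6 of the 10 highest siCHD5 peaks and 4 of the 10 highest siNC peaks, while they held 37 of all 279 subtelomeric siCHD5 peaks (13.3%) and 38 of all 221 subtelomeric siNC peaks (17.2%). Each of these ends had its strongest peak at 13.4-fold to 37.6-fold in siCHD5 and at 13.2-fold to 29.0-fold in siNC. The median over the 5 ends was 22.5 in siCHD5 and 16.2 in siNC. At the other ends the strongest peak had a median of 11.8-fold in siCHD5 (34 ends, 6.09 to 24.1) and 10.8-fold in siNC (33 ends with a peak, 2.87 to 29.1). The ranges overlap: 14 of the 34 other ends in siCHD5 and 8 of the 33 in siNC reached the lowest value of the DDX11L ends. Of the other ends, 19p also has a WASH pseudogene second, and its strongest peak had 10.3-fold in siCHD5 and 8.94-fold in siNC. Among the other ends, the 11 with an RPL23AP pseudogene (a ribosomal protein pseudogene) outermost had a median strongest peak of 14.96-fold in siCHD5 and 12.2-fold in siNC. The remaining 23 ends had 11.2-fold in siCHD5 and, leaving out 3p, which had no siNC peak, 9.31-fold in siNC. This grouping was made after the values had been seen. Because the build of the gene table differs from that of the peaks, no peak was placed on or beside a gene.

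**Figure D3:**
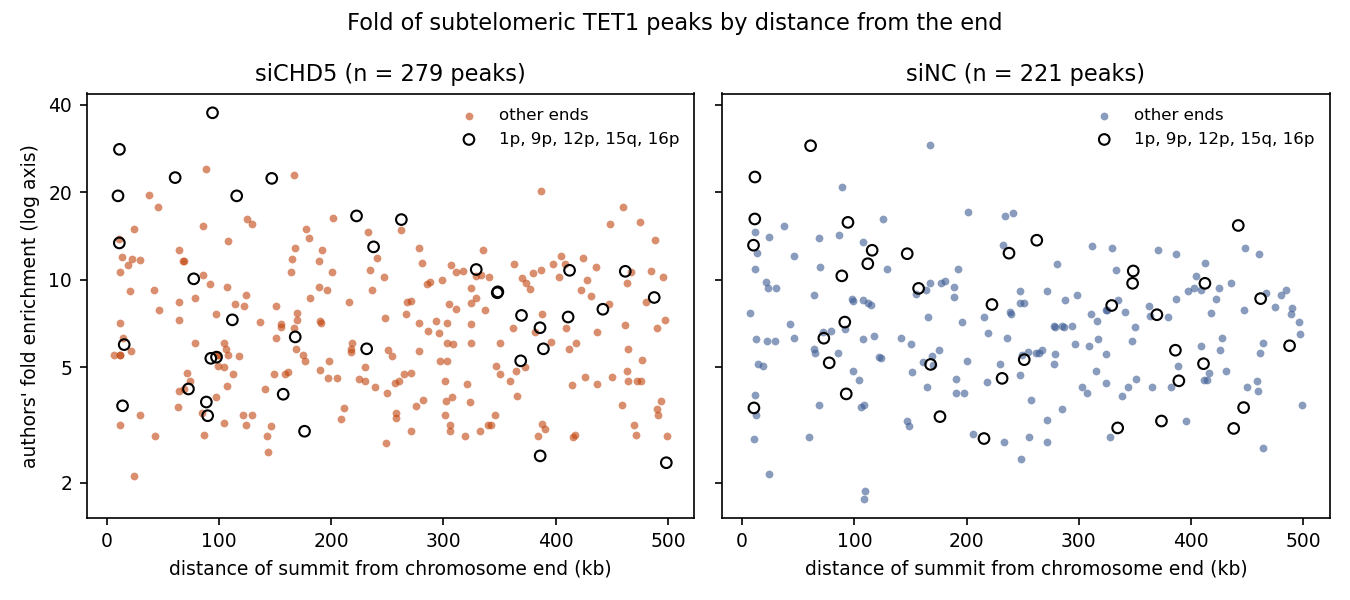
Authors' fold enrichment (vertical axis, log scale) against distance of the summit from the chromosome end (horizontal axis, kb) for every subtelomeric peak of siCHD5 (left) and siNC (right); open circles mark 1p, 9p, 12p, 15q and 16p, the ends with a DDX11L pseudogene outermost. Folds between 2 and 15 occur at all distances, and open circles include the highest siCHD5 peak (37.6) and the second highest siNC peak (29.0).

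Peaks came close to the ends of the assembly, and at similar distances on different chromosomes. Distances run from the assembly's end and include any unsequenced bases there, whose length at each end was not taken into account. How far such bases set the similar distances and the counts within 15 kb was not tested. At 7 of 17 short-arm ends in siCHD5 and 6 of 16 with a peak in siNC, the outermost summit lay within 15 kb of the first base. In siCHD5 these were 1p at 11.3 kb, 9p at 11.4 kb, 18p at 11.5 kb, 2p at 11.6 kb, 4p at 12.1 kb, 5p at 13.3 kb and 17p at 14.5 kb. In siNC the distances were 11.3 kb at 1p, 11.4 kb at 9p, 11.6 kb at 18p, 12.1 kb at 4p, 13.3 kb at 5p and 14.5 kb at 17p, and the outermost siNC summit of 2p lay at 18.8 kb. Folds at these outermost summits varied widely, from 3.15 at 18p to 28.1 at 9p in siCHD5 and from 3.43 at 4p to 22.6 at 9p in siNC.

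Long-arm distances carry an uncertainty of 5 kb, since those ends were set to a rounded length. With that limit, 5 of 22 long-arm ends in siCHD5 (1q, 10q, 15q, 19q and 21q) and 6 in siNC (the same ends and 17q) had a summit within 15 kb. The 5 siNC summits nearest any end lay at 10q (6.68 kb, 7.69-fold), at 15q (10.2 kb, 13.2-fold, and 10.5 kb, 3.62-fold, 2 summits of 1 interval), at 17q (10.8 kb, 2.83-fold) and at 1q (11.3 kb, 14.6-fold). siCHD5 overlapped all of these but the weak 17q peak. The 1q peak, on chromosome 1 at 249238531 to 249238902, was the single siNC peak of that end, and siCHD5 had 1 peak there as well (13.9-fold).

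By number of peaks there was no steep gradient within the windows. No allowance was made for unsequenced bases, which may take up more of some steps than of others. In 5 steps of 100 kb from the ends inwards, siCHD5 had 58, 58, 51, 62 and 50 peaks and siNC had 48, 45, 47, 41 and 40. Median fold in the outermost step was 7.17 in siCHD5 and 7.08 in siNC, and in the other 4 steps it ran from 6.05 to 6.90 in siCHD5 and from 6.32 to 7.39 in siNC.

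Against the whole rest of its list, the typical subtelomeric peak had a similar fold. The median of 6.80 in siCHD5 stands against 6.91 (6.83 to 6.96) for its remaining peaks, and the median of 6.79 in siNC against 6.72 (6.69 to 6.79). At the highest folds the windows held a larger share, and the list's value lay outside the counting interval of the windows in both lists at folds of 15 and 20. These intervals cover counting error only, and peaks at neighbouring or duplicated sites are not independent. The 4 siNC peaks at 20 or more (16q, 16p, 9p and 9q) overlap siCHD5 peaks also at 20 or more. The lists therefore do not count separate sites there. In siNC at a fold of 15 the bound of 2.84 lay close to the list's 2.82. A fold of 20 or more was reached by 7 of 279 subtelomeric siCHD5 peaks (2.51%, 1.01 to 5.10), where 0.693% of the whole list reached it, and by 4 of 221 siNC peaks (1.81%, 0.495 to 4.57), where 0.443% did. A fold of 15 was reached by 20 siCHD5 peaks (7.17%, 4.43 to 10.9), against 4.08% of that list, and by 12 siNC peaks (5.43%, 2.84 to 9.29), against 2.82%. A fold of 10 was reached by 74 siCHD5 peaks (26.5%, 21.4 to 32.1), against 21.8%, and by 42 siNC peaks (19.0%, 14.1 to 24.8), against 18.0%. Of those at 20 or more, 4 of 7 in siCHD5 and 2 of 4 in siNC lay at the 5 ends with a DDX11L pseudogene outermost, which held 13.3% of all subtelomeric siCHD5 peaks and 17.2% of all subtelomeric siNC peaks. Of those at 15 or more, the same ends held 8 of 20 in siCHD5 and 5 of 12 in siNC. Shares past these folds without the 5 ends were not computed, so a larger share at high fold is not shown for the other ends. Weak peaks were also a larger share in the siCHD5 windows. The lowest quartile of siCHD5 fold held 89 of 279 subtelomeric peaks (31.9%, 26.5 to 37.7), against 24.9% of the remaining siCHD5 peaks, and the first-quartile fold was 4.47 in the windows, against 4.94 elsewhere. At 5q alone, the 21 siCHD5 peaks had a median of 3.81-fold, so part of the 31.9% came from that end. The share without 5q was not computed, so a larger share of weak peaks is not shown for the other ends. In siNC the lowest quartile of siNC fold held 59 of 221 (26.7%, 20.99 to 33.0), against 24.99% of the remaining siNC peaks. A fold of 4 was reached by 226, or 81.0%, of subtelomeric siCHD5 peaks (75.9 to 85.4) and 85.3% of that list, and by 190, or 86.0%, of subtelomeric siNC peaks (80.7 to 90.3) and 87.1% of that list. Median width was 309 bp for subtelomeric and 301 bp for other siCHD5 peaks, and 302 bp for subtelomeric and 300 bp for other siNC peaks. The control background at the summit had a median of 3.41 reads in the siCHD5 windows, against 4.10 elsewhere, and 3.33 in the siNC windows, against 3.70 elsewhere.

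Most subtelomeric sites were common to the long lists. siCHD5 peaks overlapped 193 of 221 subtelomeric siNC peaks (87.3%, 82.2 to 91.4), beside 85.4% of the whole siNC list. In the other direction siNC overlapped 198 of 279 subtelomeric siCHD5 peaks (71.0%, 65.3 to 76.2), beside 74.5% of the whole siCHD5 list. Both shares are near the background of their list. Overlap was higher at higher fold, in the windows as elsewhere: siCHD5 overlapped 36 of 59 subtelomeric siNC peaks in the lowest quartile of siNC fold and 61 of 61 in the highest. siNC overlapped 38 of 89 and 78 of 81 subtelomeric siCHD5 peaks in the lowest and highest quartiles of siCHD5 fold. Shared summits lay close together, with a median shift of 11 bp over 198 subtelomeric siCHD5 peaks and 10 bp over 24194 others.

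**Figure D4:**
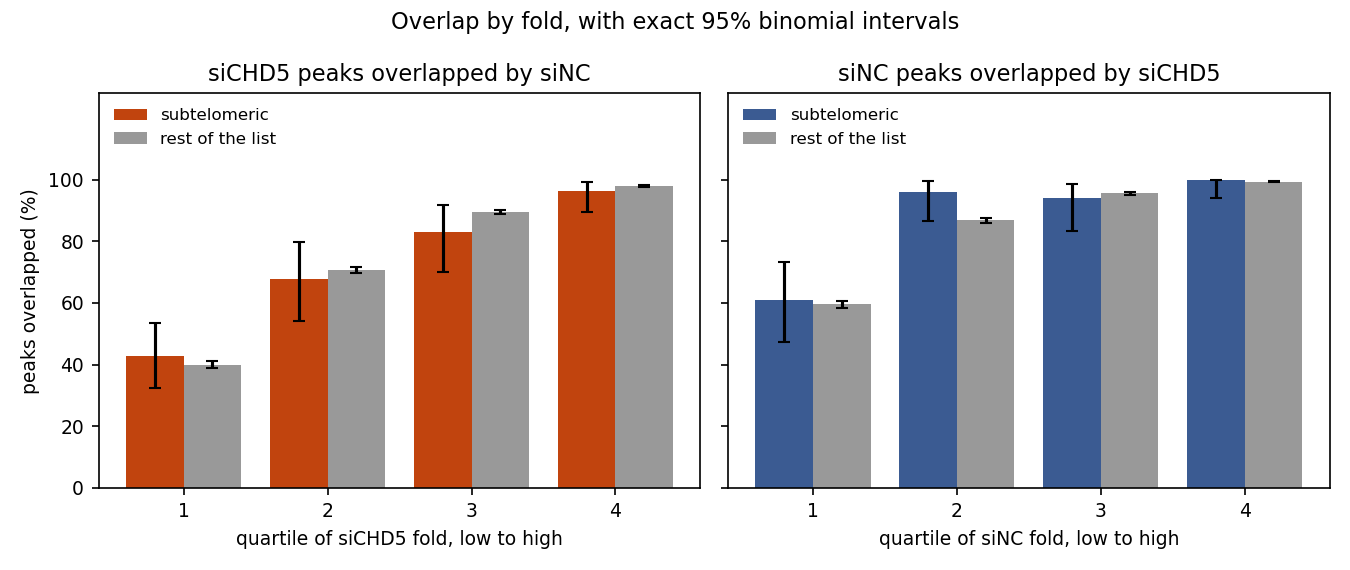
Share of peaks overlapped by the other long list (vertical axis, percent) by quartile of the list's own fold (horizontal axis), for siCHD5 (left) and siNC (right); coloured bars are subtelomeric peaks, grey bars the rest of the list, and error bars exact binomial 95% intervals. Both kinds of bar are lowest in the first quartile and highest in the last, at 96.3% (subtelomeric) and 97.8% (rest) in siCHD5 and at 100% (subtelomeric) and 99.4% (rest) in siNC.

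Subtelomeric peaks held by 1 long list had a lower median fold than shared ones, and the same held for the rest of each list. In the whole lists, 8357 of 32749 siCHD5 peaks and 4156 of 28450 siNC peaks had no partner in the other. The 81 subtelomeric siCHD5 peaks without a siNC partner had a median of 4.38-fold, against 8.28-fold for the shared ones (4.47 and 7.92 in the rest of siCHD5). The 28 subtelomeric siNC peaks without a siCHD5 partner had a median of 3.43-fold, against 7.43-fold for the shared ones (4.13 and 7.20 in the rest of siNC). The strongest siCHD5 peaks of this kind lay at 2q (242892991 to 242893307, 11.2-fold), 16q (89976679 to 89976994, 9.73-fold), 19q (58666448 to 58666754, 9.73-fold), 8q (145982520 to 145982850, 9.31-fold) and 20q (62701123 to 62701378, 8.67-fold). In siNC they lay at 4p (238347 to 238617, 7.73-fold), 4q (190833391 to 190833717, 7.21-fold), 1p (91362 to 91571, 7.15-fold, and 251251 to 251492, 5.31-fold) and 10q (135252326 to 135252594, 5.15-fold). The 5q end alone held 4 of the 28.

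The 4 short lists overlapped few subtelomeric siNC peaks. siCHD3, siCHD4 and siMBD3 each overlapped 1 of 221 subtelomeric siNC peaks (0.452%, 0.0115 to 2.50), beside 0.179%, 0.169% and 0.176% of the whole siNC list. siMBD2 overlapped 2 (0.905%, 0.1098 to 3.23), beside 0.250%. Each whole-list share lies inside the interval of its subtelomeric share. Read from the short lists, both siCHD3 members were overlapped by siCHD5 (48.6% of the whole siCHD3 list was) and 1 by siNC (37.9% of the list). The siCHD4 member was overlapped by siCHD5 (56.4% of the list) and by siNC (46.4%). Of 3 siMBD2 members, 2 were overlapped by siCHD5 (26.3% of the list) and the same 2 by siNC (20.7%). Of 3 siMBD3 members, 1 was overlapped by siCHD5 (30.1% of the list) and the same 1 by siNC (22% of the list). In all, 190 subtelomeric siNC peaks were found in siCHD5 and in no short list, 28 in no other list, and 3 in siCHD5 and at least 1 short list.

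One site recurred in nearly every list. At 7p, on chromosome 7 at 24101 to 24378 in siNC, the fold was 2.103 in siCHD5 and 2.15 in siNC, with pileups of 167 fragments over a control background of 78.9 reads in siCHD5 and 160 over 73.9 in siNC. siMBD2 had 2.53-fold there (132 fragments over 51.5 reads), siCHD3 2.29-fold (171 over 74.1) and siCHD4 1.97-fold (180 over 90.8). siMBD3 had none; its nearest peak lay at 2393853 to 2394210. The recovered control background was thus many times above the subtelomeric medians of 3.41 in siCHD5 and 3.33 in siNC. It was the single siCHD5 peak, and 1 of 3 siNC peaks, with a background of 20 reads or more in the windows. The remaining siNC ones were summits of 1 interval at 18p, on chromosome 18 at 108814 to 109203 (1.76-fold and 1.87-fold). Peaks with a background this high made up 88.4% of the remaining siCHD3 list and 90.8% of the remaining siCHD4 list. They made up 25.6% of the remaining siMBD2 list and 35.5% of the remaining siMBD3 list, but 0.333% of the remaining siCHD5 list and 0.290% of the remaining siNC list. What part a high control background plays in the 7p peak was not tested.

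The 16p peak was the strongest siNC site that a short list also held. siMBD2 had 4.60-fold enrichment on chromosome 16 at 60938 to 61157, where siCHD5 had 22.5-fold and siNC 29.0-fold. Its pileup in siMBD2 was 12 fragments over a background of 1.83 reads, the lowest in that list. The fold of 4.60 was also the median of the other siMBD2 peaks.

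The remaining short-list peaks were few, and their folds lay below the subtelomeric medians of the long lists. Fold is a ratio within each list, however. The peaks outside the windows had a median of 1.52-fold in siCHD3, 4.60-fold in siMBD2 and 4.13-fold in siMBD3. At 7q siCHD3 had a 3.26-fold peak on chromosome 7 at 158995968 to 158996212, where siCHD5 had 2.55-fold and siNC none. At 5p siMBD3 had a 3.99-fold peak on chromosome 5 at 415515 to 415749, where siCHD5 had 2.87-fold and siNC 4.78-fold. At 3q siMBD2 had a 4.25-fold peak on chromosome 3 at 197581487 to 197581698, and siMBD3 had peaks at 197582245 to 197582519 (4.36-fold) and at 197676799 to 197677001 (3.94-fold). None of these 3 overlapped a peak of another list, but the siMBD2 summit and the first siMBD3 summit lay 870 bp apart, and the second siMBD3 summit lay 346 bp from that of a siCHD5 peak at 197677250 to 197677465 (3.15-fold).

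Peaks lay on both sides of the 500 kb bound. The siCHD5 summits just inside it lay at 498.9 kb (17p, 2.89-fold), 498.5 kb (12p, 2.34-fold) and 497.2 kb (18p, 7.25-fold), and those just outside at 504.8 kb (12q, 7.56-fold), 506.9 kb (19p, 8.30-fold) and 510.8 kb (19p, 9.73-fold). The siNC summits just inside lay at 498.9 kb (17p, 3.72-fold), 497.2 kb (18p, 6.53-fold) and 495.8 kb (19p, 7.15-fold), and those just outside at 504.9 kb (12q, 6.60-fold), 506.9 kb (19p, 10.0-fold) and 510.3 kb (12q, 3.72-fold).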

How the data were processed

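TET1 pull-down and input libraries of HEK293T cells were sequenced by the authors, and 6 peak lists, each named for replicates 1 to 3 together, were analysed. The build hg19 is listed in the submitters' processing notes, as are MACS2 2.1.2, Bowtie2 2.3.4, deepTools 3.5.0, bedtools 2.25.0, SAMtools 1.9 and FastQC 0.11.7, without roles. Call settings and the handling of duplicate or repeated reads were not given there. Fold enrichment at a summit, pull-down relative to local background, is the deposited ratio. Each summit also has a deposited −log10 p and a deposited −log10 q, and the deposited score is 10 times −log10 q, truncated, in at least 99.6% of each list. Read depth per library is unknown; the lowest control background was 2.80 reads in siCHD5 and 2.50 in siNC.

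A peak with several summits counts once per summit. Overlap means at least 1 bp. Windows were placed from rounded chromosome lengths, and the left-out windows of the acrocentric short arms held 0 peaks. Pileup and background were recovered from fold (pseudocount 1) and −log10 p within 0.02, for at least 98.2% of each list and every subtelomeric peak. Shares carry exact Clopper-Pearson 95% intervals and medians exact order-statistic 95% intervals, both for counting error only. No test was run over peaks, since each group has 1 list. Named peaks are the 10 highest folds per long list, the 5 highest without a partner, all short-list peaks, and those nearest the ends and the bound. The members and rules were chosen with earlier results of these data known. Procedures were tested on simulated data with Python 3.11.15, numpy 2.4.6, pandas 2.3.3 and scipy 1.17.1. Gene names are from RefSeq GRCh38.p14, another build, so no gene or sequence was assigned to a peak.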

Additional observations from a re-analysis of the deposited data

How the results depend on the processing

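Of 112 values under other settings, 92 stayed within the counting interval of the reported value and 20 did not. Many of these values belong to the short lists, whose intervals are wide (0.173 to 5.07 for the siCHD3 share). Staying within such intervals says little, and a fold filter raises median fold by construction. Both density ratios stayed above 1 and within their intervals under every setting run: windows of 250 and 1000 kb, −log10 q of at least 5, a fold of at least 4, distinct intervals, and windows without the end holding most peaks or without 14q. Only for siNC at −log10 q of at least 5, where the ratio was 1.13, did the interval reach below 1 (0.968). No setting took unsequenced bases out of the lengths. Shares of the list scaled with the window: 0.427% (250 kb) and 1.72% (1000 kb) in siCHD5, and 0.408% and 1.61% in siNC. Median fold was 7.62 in siCHD5 and 7.65 in siNC with −log10 q of at least 5, and 7.79 and 7.53 with a fold of at least 4. siCHD5 overlapped 92.9% of subtelomeric siNC peaks at −log10 q of at least 5, and siNC overlapped 77.9% of subtelomeric siCHD5 peaks at a fold of at least 4. The short lists rest on 1 to 3 peaks. At a fold of at least 4 the share was 0% in siCHD3 and 0% in siCHD4, and their overlap with subtelomeric siNC peaks was 0% and 0%. Without 7p the siCHD4 share was 0%. The siMBD3 share was 0% with windows of 250 kb and 0% at −log10 q of at least 5, and its overlap was 0% under both and at a fold of at least 4. Settings without 14q and without the DDX11L ends were chosen after seeing the data. No paired analysis was possible because each list pools its replicates, and no replicate could be left out for the same reason. Counting error, duplicated sequence and unknown depth limit every value.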
